A study of Mus musculus with 24 samples.

Results

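The interferon response and antigen presentation genes of mouse muscle were followed on 51 microarray probes of 44 genes, out of 26423 probes on the array, of which 20377 carried a gene symbol. A probe was taken when its symbol was one of 45 listed genes or began with H2-, the prefix of the major histocompatibility complex (MHC) genes, and the immunoproteasome genes were left out. Of the listed genes 42 had a probe, and no probe carried the symbol of IFIT3, IFITM2 or OAS1A. No platform symbol contained a hyphen, so the prefix was matched with the hyphen dropped, which added 2 probes: H2-Aa and H2-Ab1, the chains of the MHC class II molecule I-A. The symbol of the second is shared by a histone gene of the X chromosome, and the annotation does not say which of them the probe was designed for. The probes fell into 41 for interferon receptors, signalling proteins and targets (36 genes) and 10 for antigen presentation (8 genes).

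Total RNA of the tibialis anterior, a leg muscle, came from 4 control mice and 4 mice labelled Hira CKO (conditional knockout). The strain background was C57BL6/J;129S1/SvImJ, mixed, and all animals were 6 weeks old and carried 1 copy of Myf6 cre, a cre driver of the muscle lineage that is not known to act in the vessels or immune cells of the tissue. The controls were Myf6 cre/+; Hira flox/+ and the Hira CKO animals Myf6 cre/+; Hira flox/-, so that every animal had a floxed allele and the cells of the Hira CKO animals in which cre is not active kept a single Hira copy. By these genotypes, control cells in which cre has acted also keep 1 Hira copy, and such cells of the Hira CKO animals keep none. Control cells without active cre keep both copies. HIRA is a chaperone that places the histone variant H3.3 into chromatin. Each animal was hybridised on 3 arrays (24 arrays), and the animal was the replicate throughout.

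The single Hira probe did not measure a loss. It read 495 ± 48.9 in controls and 558 ± 38.9 in Hira CKO animals (SD, n = 4), a difference of 0.17 on the log2 scale (SE 0.0871, adjusted p = 0.193), and its position relative to the deleted part of the gene is not known here, so it does not check the labels. Fibre markers were measured at a summed intensity of 1213000 to 1387000 in controls and 1162000 to 1191000 in Hira CKO animals, and 3 of 6 fibre genes (Acta1, Ttn, Ckm) were called lower; without the Acta1 probe the sums overlapped, at 1059000 to 1200000 against 1043000 to 1074000. In whole muscle, fewer cells of a type and less RNA per cell cannot be told apart. Nothing in the labels gives a sex, slide or scan date.

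Interferons are secreted signalling proteins, and those of type I are released by cells that sense viral nucleic acid. Type I interferons bind IFNAR1 and IFNAR2, and interferon gamma binds IFNGR1 and IFNGR2; Janus kinases then activate STAT proteins. STAT2 acts with IRF9 in the ISGF3 complex, which binds the interferon-stimulated response element (ISRE) of target genes such as ISG15, MX1 and the OAS and IFIT families, while genes that respond to interferon gamma often carry the gamma-activated site (GAS). The response includes antigen presentation: peptides enter the endoplasmic reticulum through TAP1 and TAP2 and are loaded on class I molecules with B2M as light chain, and class II molecules, under the regulator CIITA, are loaded with the help of CD74. Muscle fibres hold little class I at rest, and class II is a property of dendritic cells, B cells and activated macrophages.

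In Hira CKO muscle a small group of these genes was lower: the signalling components Irf9 and Irf7, the ubiquitin-like modifier Isg15, 1 of 2 Ifngr2 probes, 1 of 3 probes of the invariant chain Cd74, and the probe taken as H2-Ab1. The membrane-bound antiviral protein Ifitm1 was higher. The falls were between 0.51 and 0.63 on the log2 scale, that is to between 0.646 and 0.7 times the control level. The 6 probes called lower were 11.8% of the 51 members, near the 10.0% called lower over the whole array. The calls of Irf7 and Isg15 were each lost in 5 fits that left out 1 animal. That of Ifitm1 was lost in 2 such fits, and with array 2 or array 3 of each animal alone. Most classical interferon targets, among them Mx1, Mx2, Oas2, Oasl2, Ifit1, Eif2ak2 and Ifih1, did not pass the test in either direction. A probe was called when its Benjamini-Hochberg adjusted p in limma, over all 26423 probes, was under 0.05, and changes are Hira CKO minus control in log2(intensity + 16).

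Counted over the lists, 1 of the 41 interferon probes was called higher and 4 lower, and 0 of the 10 antigen presentation probes higher (0 also at an unadjusted p under 0.05 in limma) and 2 lower. Over the whole array 20.6% of probes were called, 10.5% higher and 10.0% lower. The interferon probes called lower made up 9.76% of their list, close to that background, and the probe called higher 2.44%. The antigen presentation probes called lower were 2 of only 10. The values of the 4 controls and the 4 Hira CKO animals did not overlap at 2 member probes with Hira CKO higher and at 7 with Hira CKO lower; over all probes this was so for 12.8% and 12.0%. The 7 were Ifngr2 probe 2, Irf9, Irf7, Tap2, Cd74 probe 1, Ciita and H2-Ab1, and the 2 were Ifitm1 and the dim Irf1 probe 2.

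Small negative changes were common among the members. The change was below 0 at 40 of the 51 probes (78.4%), against 47.9% of all probes, and the median change was -0.15 against 0.01 over all probes. For the interferon probes it was below 0 at 30 of 41 with a median of -0.12, and for antigen presentation at 10 of 10 with a median of -0.24. A single control animal carried part of the interferon count: without control 2, the interferon probes below 0 numbered 24 with a median of -0.10, and the members below 0 numbered 34. With array 3 of each animal alone, the interferon median was -0.05 with 26 of 41 below 0. The plot of changes by role shows that the receptors and antigen presentation genes all lay on the lower side, while sensors and effectors lay on both sides of 0.

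**Figure D1:**
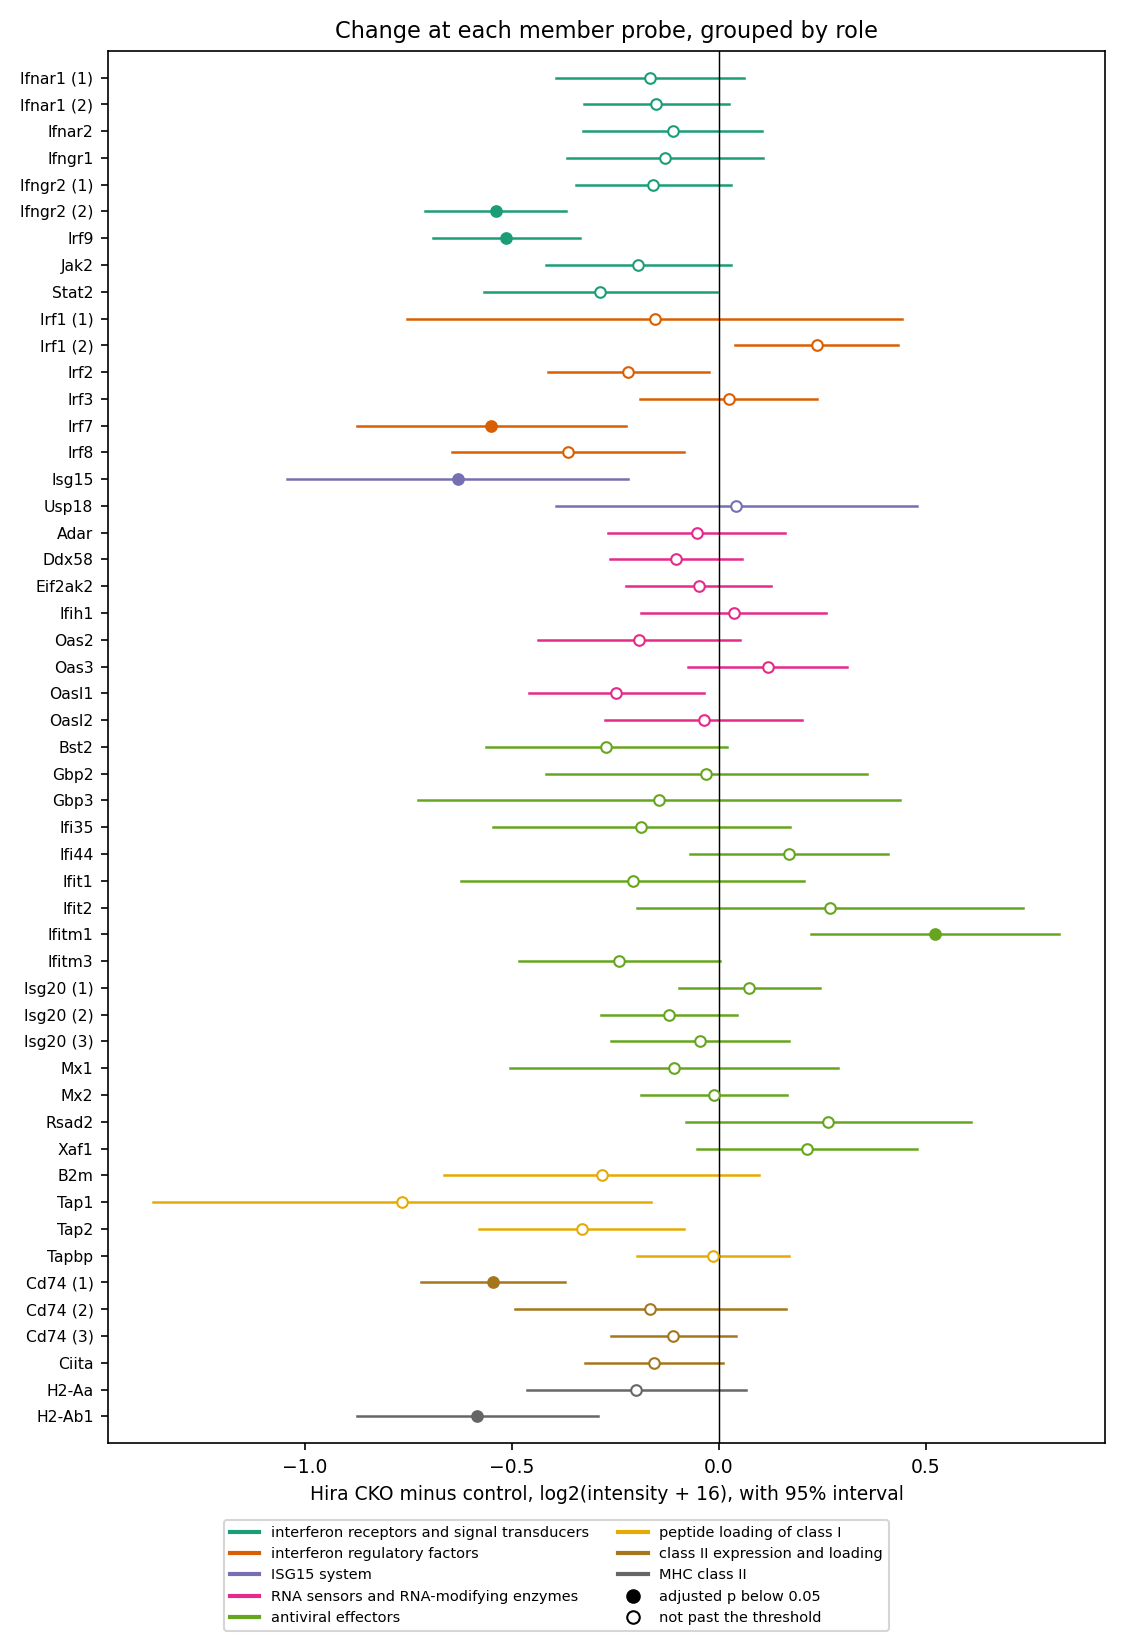
Change at each of the 51 member probes (Hira CKO minus control, log2(intensity + 16), 4 animals a group), coloured by role, with the 95% interval as a line; numbers in brackets tell several probes of a gene apart. Filled points passed an adjusted p of 0.05: 6 lie to the left of 0 and 1, Ifitm1, to the right.

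Among the receptors and signal transducers, 9 probes were measured, all 9 with a change below 0, and 2 of them (22.2%) were called lower. The median was -0.17. Over the whole array 47.9% of probes were below 0 and 10.0% were called lower. The 9 probes included 2 each of Ifnar1 and Ifngr2, and the calls were Irf9 and 1 of the 2 Ifngr2 probes. IRF9 is the DNA-binding subunit of ISGF3. The Irf9 probe read 668, 705, 670 and 711 in controls 1 to 4 and 527, 459, 499 and 431 in Hira CKO animals 1 to 4. The highest Hira CKO animal lay well below the lowest control. The change was -0.51 (SE 0.0793, adjusted p = 0.00183), and with any 1 animal left out the adjusted p stayed at or below 0.00805.

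Ifngr2, the signalling chain of the interferon gamma receptor, was measured by 2 bright probes that differed. Probe 2 read 10860, 10280, 10850 and 9548 in the controls and 7645, 7265, 6971 and 6657 in the Hira CKO animals. The groups stood apart, with a change of -0.54 (SE 0.0763, adjusted p = 0.00112) that was called with any 1 animal left out. Probe 1, the brighter of them, read 13520, 15700, 15070 and 13650 in controls against 12770, 13400, 11720 and 13970 in Hira CKO animals. Those groups overlapped, and the change of -0.16 (SE 0.0841, adjusted p = 0.208) did not pass, with a 95% interval from -0.35 to 0.03 that does not reach the value of probe 2. The Ifngr2 call therefore rests on 1 of its probes.

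The other receptor chains gave small values that did not pass: -0.17 and -0.15 at the Ifnar1 probes, -0.11 at Ifnar2 and -0.13 at Ifngr1, with adjusted p between 0.202 and 0.447. Jak2, a kinase bound to the interferon gamma receptor, changed by -0.19 (adjusted p = 0.197). Stat2, the partner of IRF9 in ISGF3, changed by -0.29 (SE 0.126, adjusted p = 0.135), and without control 3, its lowest control, the adjusted p was 0.0389. Ifnar1, Ifnar2, Ifngr2, Mx1, Mx2 and Ciita lie on chromosome 16, as does Hira itself in the mouse. Their 8 probes were all below 0, and 1 of the 8 was called. Their median of -0.15 was that of all 51 members. The 6 member probes on chromosome 17 were all below 0 as well, with a median of -0.27. Outside the members, genes of chromosome 16 went both ways. Il10rb and Dtx3l were called higher, by 0.38 and 0.51, and the Ifitm7 probes changed by -0.07 and -0.12.

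Interferon regulatory factors are the transcription factors that turn on interferon genes and extend the response. Of 6 probes for 5 genes, 1 was called lower; at an unadjusted p under 0.05 limma gave 3 lower and 1 higher. Irf7, the factor that amplifies type I interferon production, read 1226, 1156, 791 and 834 in controls and 772, 633, 646 and 628 in Hira CKO animals. Controls 1 and 2 were far above controls 3 and 4, and the lowest control stood only just above the highest Hira CKO animal. The change was -0.55 (SE 0.146, adjusted p = 0.0258). The call was lost in 5 of the 8 fits that left out 1 animal: the adjusted p was 0.0532 without control 1, 0.0671 without control 2, and 0.0654, 0.0560 and 0.0573 without Hira CKO 2, 3 and 4.

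Irf8, a factor of macrophages and dendritic cells, read 488, 369, 415 and 347 in controls and 292, 287, 284 and 381 in Hira CKO animals. Hira CKO 4 fell among the controls and the change of -0.37 (SE 0.126) did not pass (adjusted p = 0.0661); without that animal the adjusted p was 0.0225. Irf2, an antagonist of IRF1 at shared sites, changed by -0.22 (adjusted p = 0.105) and Irf3, the factor downstream of nucleic acid sensors, by 0.02 (adjusted p = 0.890).

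Irf1, a factor induced by interferon gamma, had a bright and a dim probe. The bright one read 3702, 3498, 4635 and 6428 in controls and 3244, 2901, 6416 and 4844 in Hira CKO animals, with a change of -0.16 (SE 0.269, adjusted p = 0.721). Its arrays of the same RNA spread widely. The SD over the 3 arrays of an animal, pooled over the animals, was 0.65 on the log2 scale, against a median of 0.13 over all probes. Without control 4 the change was 0.04. The dim probe changed by 0.24 with no overlap between the groups (adjusted p = 0.0860), at means of 39.8 and 49.8, near the lower end of the array.

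ISG15 is a small ubiquitin-like protein that is attached to other proteins during the response, and USP18 is the protease that removes it and also dampens receptor signalling. The Isg15 probe read 204, 334, 314 and 326 in controls and 219, 216, 131 and 173 in Hira CKO animals. Control 1 fell among the Hira CKO animals, so the groups overlapped. Its change of -0.63 (SE 0.185, adjusted p = 0.0374) was the largest called fall among the members. It too was lost in 5 of the 8 fits without 1 animal, with an adjusted p of 0.0914, 0.0907 and 0.0852 without control 2, 3 and 4, and of 0.0783 and 0.0753 without Hira CKO 3 and 4. The arrays of each animal lay close together, as the plot of single arrays shows, and the spread at this probe was between animals. Usp18 read 256, 514, 358 and 343 in controls and 380, 396, 276 and 439 in Hira CKO animals, a change of 0.04 (SE 0.196, adjusted p = 0.905) whose sign turned without control 1 (-0.11), without Hira CKO 4 (-0.04) and with the first array of each animal only (-0.04).

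**Figure D2:**
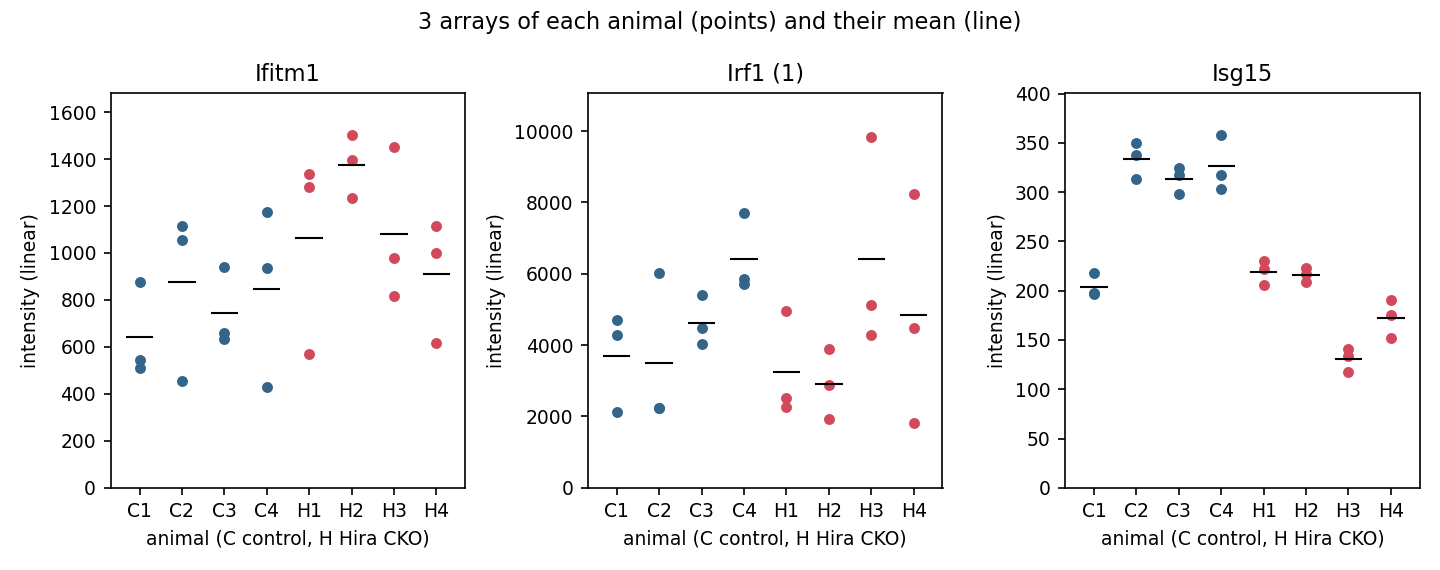
Linear intensity of the Ifitm1, bright Irf1 and Isg15 probes on the 3 arrays of each animal (points) with their mean (line); C1 to C4 are controls and H1 to H4 Hira CKO animals. The arrays of an animal lie close together for Isg15 and are widely spread for Ifitm1 and Irf1. The SD between arrays, pooled over the animals, is 0.522 log2 for Ifitm1 and 0.65 for Irf1.

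The ISRE core, searched on both strands as GAAA, any 2 bases and GAAA again, was found in the promoters of 13 of the 32 interferon genes with a sequence, or 40.6%, against 3.99% of 27025 genes and 3.44% of all 32851 promoters. Promoter sequences were taken from RefSeq, build GRCm38.p6, from 250 bases before to 50 after the gene start, and 36 of the 44 member genes had one. The stretches below are shown because they set the called gene Isg15 beside targets that carry the same element and were not called. Each is written 5′ to 3′ on the gene's strand, with the matches in capitals.
Isg15, chr4:156200855-156200916, minus strand: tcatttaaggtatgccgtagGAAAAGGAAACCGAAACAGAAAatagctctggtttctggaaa
Ifit1, chr19:34640765-34640833, plus strand: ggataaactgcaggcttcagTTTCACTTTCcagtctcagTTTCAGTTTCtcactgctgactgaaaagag
Bst2, chr8:71537567-71537622, minus strand: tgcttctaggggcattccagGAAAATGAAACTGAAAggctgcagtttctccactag
Oas3, chr5:120777705-120777754, minus strand: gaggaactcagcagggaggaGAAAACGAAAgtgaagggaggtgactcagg
Gbp2, chr3:142620584-142620633, plus strand: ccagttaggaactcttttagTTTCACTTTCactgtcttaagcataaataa
The stretch of Isg15 lies 98 to 37 bases before the gene start and holds 3 overlapping matches in a row. That of Ifit1 lies 124 to 56 bases before the start and holds 2 separate matches on the opposite strand, Bst2 holds 2 overlapping ones, and Oas3 and Gbp2 hold 1 each. Isg15 was called lower; Ifit1 changed by -0.21, Bst2 by -0.27, Oas3 by 0.12 and Gbp2 by -0.03, and none of these passed. Over all interferon probes of genes with the core, 0 of 13 were called higher and 1 lower with a median change of -0.15, and of the 24 probes of genes without it 1 was called higher and 3 lower with a median of -0.13. The medians with and without the core were close, and their difference was not tested. The promoters of Irf7, Irf9, Ifitm1 and Ifngr2 held no match to these letters in this window. The GAS letters TTCNNNGAA were found in 12 of the 32 interferon genes (37.5%), against 9.55% of all genes.

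The RNA sensors and RNA-modifying enzymes detect foreign RNA or act on it. Of their 8 probes limma called 0, with 1 at an unadjusted p under 0.05, and the median change was -0.05. The brightest was Oas3, an oligoadenylate synthetase, at 9675, 9633, 9438 and 8268 in controls and 9966, 10330, 8905 and 10940 in Hira CKO animals. The groups overlapped and the change was 0.12 (95% interval -0.08 to 0.31, adjusted p = 0.366). The largest change of the group was that of Oasl1, an inhibitor of IRF7 translation, at -0.25 (adjusted p = 0.0920). Ifih1 and Ddx58, the cytosolic RNA receptors MDA5 and RIG-I, changed by 0.04 and -0.10, and Eif2ak2, the RNA-activated kinase PKR, by -0.05. Adar, which edits double-stranded RNA, changed by -0.05. The 95% interval of Eif2ak2 ran from -0.22 to 0.13 and that of Ddx58 from -0.26 to 0.06, so that falls as large as that of Irf9 lay outside them.

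The antiviral effectors had 16 probes, of which limma called 1 higher and 0 lower, with 0 lower also at an unadjusted p under 0.05, and the median change was -0.04. The call was Ifitm1, a membrane protein that hinders viral entry, which read 643, 874, 745 and 846 in controls and 1063, 1377, 1083 and 911 in Hira CKO animals. Each Hira CKO animal was above each control, with a change of 0.52 (SE 0.135, adjusted p = 0.0225). The arrays behind it were uneven. The adjusted p was 0.907 with the second array of each animal only, where the change was 0.06, and 0.214 when the 24 arrays were fitted with the animal as a random block. It was 0.0514 without control 1 and 0.0520 without control 3. The related Ifitm3, at 18560, 18820, 15870 and 20120 in controls and 17970, 14280, 13500 and 16640 in Hira CKO animals, changed by -0.24 (SE 0.109, adjusted p = 0.146). Its groups overlapped.

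None of the other effectors passed. Rsad2, known as viperin, changed by 0.26, Ifit2 by 0.27 and Xaf1 by 0.21, with adjusted p of 0.254, 0.394 and 0.232. Bst2, or tetherin, changed by -0.27 (adjusted p = 0.170). The Mx GTPases gave -0.11 for Mx1, a dim probe with means of 77.2 and 67.8, and -0.01 for Mx2. The guanylate-binding proteins gave -0.03 for Gbp2 and -0.15 for Gbp3, and Ifi35 and Ifi44 gave -0.19 and 0.17. The 3 probes of Isg20, an exonuclease, lay between -0.12 and 0.07. Intervals were wide for several of these: that of Gbp3 ran from -0.73 to 0.44 and that of Ifit1 from -0.62 to 0.21. A fall as large as that of Irf9 lay inside both.

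Some animals stood high at many of the targets. Control 2 was the highest control at 21 of the 41 interferon probes (51.2%), whereas over all probes it was the highest control at 27.2%. Among the 26 probes of sensors, effectors and the ISG15 system it was highest at 17, with a median deviation of 0.17 from the control mean on the log2 scale. The highest control exceeded the lowest 2.33-fold at Mx1, 2.01-fold at Usp18, 2.01-fold at Gbp3 and 1.92-fold at Ifit1, and the highest was control 2 each time. Hira CKO 1 was the highest of its group at 17 of 41 interferon probes (41.5%, against 23.1% over all probes). These counts describe the animals; probes of one animal share its RNA.

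**Figure D3:**
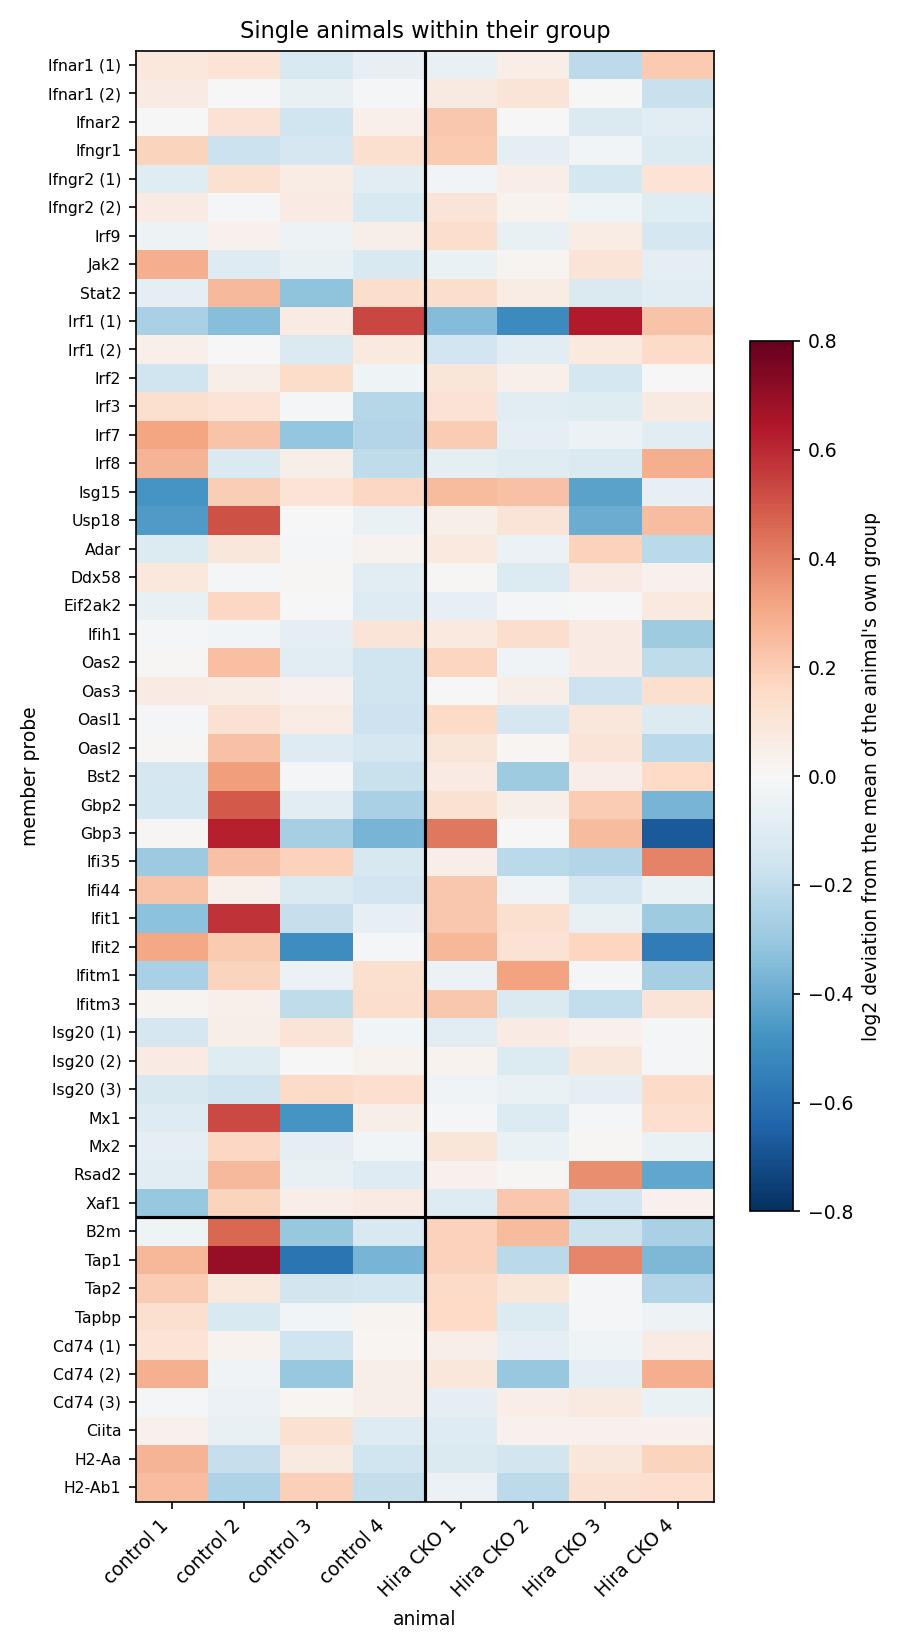
Log2 deviation of each animal from the mean of its own group at the 51 member probes, controls left and Hira CKO animals right of the vertical line, interferon probes above and antigen presentation probes below the horizontal line. Red is above and blue below the group mean; control 2 is red at most targets from Oas2 to Xaf1 and is the highest control at 21 of 41 interferon probes.

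The spread between control animals was also larger for the members than for the array as a whole, while that between arrays of 1 RNA was not. The median SD over control animals was 0.166 log2 for the interferon probes and 0.191 for antigen presentation, against 0.126 over all probes. Between Hira CKO animals it was 0.15 and 0.16, against 0.129. Between the 3 arrays of an animal it was 0.111 and 0.106, against 0.13. With 4 animals a group this animal spread limits what could be detected at these genes.

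For antigen presentation, class II and class I parts are described in turn. Cd74, the invariant chain that guides class II molecules to the endosome, was measured by 3 probes. Probe 1, the brightest, read 5015, 4740, 4157 and 4684 in controls and 3273, 3005, 3102 and 3317 in Hira CKO animals. No Hira CKO animal came near the controls, and the change of -0.55 (SE 0.0783, adjusted p = 0.00121) was called with any 1 animal left out. Probes 2 and 3 changed by -0.17 (SE 0.147, adjusted p = 0.458) and -0.11 (SE 0.0678, adjusted p = 0.278), and their groups overlapped. The 95% interval of probe 3, from -0.26 to 0.04, does not reach the value of probe 1.

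The probe taken as the class II chain H2-Ab1, whose symbol a histone gene shares, read 1615, 1145, 1559 and 1191 in controls and 874, 779, 983 and 992 in Hira CKO animals. All controls were above all Hira CKO animals, and the change was -0.58 (SE 0.131, adjusted p = 0.0121), with the highest adjusted p without 1 animal at 0.0372. H2-Aa, the other chain of I-A, read 14040, 10220, 12220 and 10420 in controls and 9322, 9120, 10770 and 11420 in Hira CKO animals. These overlapped, and the change of -0.20 (SE 0.118, 95% interval -0.46 to 0.06, adjusted p = 0.260) did not pass. Controls 1 and 3 were the high controls at both probes. Ciita, the regulator of class II genes, was dim at 157 ± 11.8 and 139 ± 7.02 (SD, n = 4), did not overlap, and changed by -0.16 (adjusted p = 0.165).

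On the class I side, 4 probes were measured and limma called 0, with 2 lower at an unadjusted p under 0.05, and the median change was -0.31. B2m, the light chain of class I, read 41580, 58370, 34380 and 39110 in controls and 39550, 41490, 30940 and 29080 in Hira CKO animals. Control 2 was far above the rest, and the change of -0.28 had a wide error (SE 0.171, adjusted p = 0.268); without control 2 it was -0.13. Tap2, a subunit of the peptide transporter, read 2192, 2015, 1719 and 1727 in controls and 1684, 1612, 1494 and 1280 in Hira CKO animals. The groups did not overlap, but the change of -0.33 (SE 0.111, adjusted p = 0.0607) did not pass. Tap1, the other subunit, had the most negative change of all members, -0.77, with an SE of 0.269 and an adjusted p of 0.0711; its controls ran from 416 in control 3 to 1034 in control 2, 2.49-fold, and without control 3 the adjusted p was 0.0353. Tapbp, or tapasin, which bridges the transporter to class I, changed by -0.01 (adjusted p = 0.922). No class I heavy chain was among the probes, and it was not analysed here.

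Class I and class II promoters carry a CCAAT box on either strand within the conserved region that CIITA-type regulators use. These letters were found in the promoters of 4 of 4 antigen presentation genes with a sequence (B2m, H2-Aa, Tap1 and Tapbp), against 41.1% of all genes; the ISRE core was found in 1 of the 4, B2m. The B2m and H2-Aa stretches are shown since these genes are the light chain and a chain of the 2 classes, with the match in capitals as the reverse complement ATTGG; the first B2m line shows the ISRE core in its place.
B2m, chr2:122147528-122147577, plus strand: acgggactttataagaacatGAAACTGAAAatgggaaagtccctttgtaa
B2m, chr2:122147614-122147658, plus strand: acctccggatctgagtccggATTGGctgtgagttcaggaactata
H2-Aa, chr17:34287847-34287891, minus strand: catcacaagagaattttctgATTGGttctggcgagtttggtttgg
The CCAAT letters stand in nearly the same place in both genes, in a stretch 73 to 29 bases before the start of B2m and 68 to 24 bases before that of H2-Aa. The matches began at position -53 from the gene start in B2m and at -48 in H2-Aa. Those of the other genes lay farther off, at -222 in Tap1 and at -248 and -165 in Tapbp. Neither gene passed the test, at -0.28 and -0.20. No promoter sequence was given for Cd74, Tap2, Ciita or H2-Ab1.

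**Figure D4:**
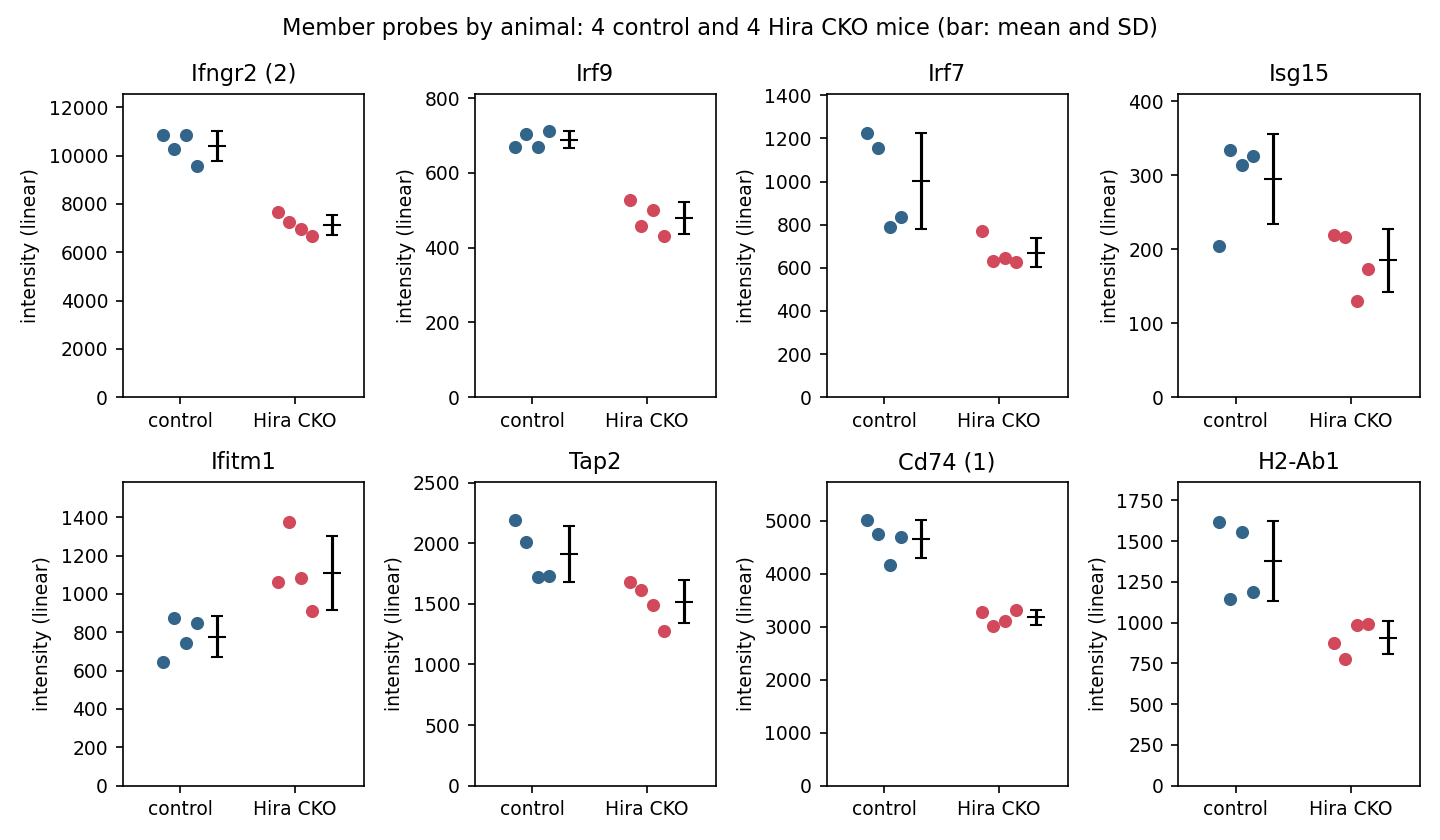
Linear intensity of 8 member probes in each of 4 control (blue) and 4 Hira CKO (red) animals, with the mean and SD beside them; each point is the mean of 3 arrays and every axis starts at 0. Ifngr2 probe 2, Irf9 and Cd74 probe 1 stand clearly apart, Isg15 overlaps through control 1, Ifitm1 is the probe that is higher in Hira CKO animals, and Tap2 stands apart without passing the threshold.

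Markers of the cells that carry class II were measured in the same RNA. Of 7 dendritic cell genes 0 were called higher and 2 lower, Itgax by -0.64 and Siglech by -0.50, and the summed dendritic intensity ran from 1497 to 1899 in controls and from 1264 to 1427 in Hira CKO animals. Without the Itgax probe the sums overlapped, at 996.7 to 1103 against 910.4 to 1021, and 3 of the 7 probes had a change above 0. Of 9 macrophage genes 1 was called higher (Itgam, 0.40) and 1 lower (Cx3cr1, -1.61), and the summed intensity overlapped, at 5876 to 8770 against 5827 to 8005. B cell markers summed to 3018 to 4276 against 3840 to 5299, with 1 of 4 genes called higher (Cd79b, 0.29). T and NK cell markers summed to 2205 to 2335 against 2642 to 2729, with 3 of 7 genes called higher (Cd3e, Cd4 and Cd2). Without the Cd3e probe the T and NK sums stayed apart, at 1683 to 1777 against 1816 to 2001. Of the 8 T and NK probes 3 had a change below 0, and the Cd4 call was lost in 2 fits without 1 animal. Endothelial markers summed to 50670 to 65160 against 38710 to 44080. Of their 7 genes 1 was called higher (Eng, 0.55) and 3 lower (Egfl7, Kdr and Pecam1). The Pecam1 call was at its brightest probe only. Its other probes changed by -0.21 and -0.22 and did not pass in limma (adjusted p = 0.253 and 0.157). Without the Egfl7 probe the endothelial sums overlapped, at 22790 to 26740 against 20830 to 23850. Neutrophil markers summed to 1642 to 1870 against 1540 to 1957, with 0 of 4 called by limma (0 also at an unadjusted p under 0.05). The calls of Ttn, Ckm, Itgam, Cd79b, Cd2 and Pecam1 were lost in 6 to 8 of the 8 fits without 1 animal. No marker probe had a mean at 0. Over the whole array 10.5% of probes were called higher and 10.0% lower. The part of these markers in the lower Cd74, H2-Ab1, Irf7, Irf8 and Irf9 values was not tested.

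The interferon pathway beyond the members was read from a list of 94 further genes, of which 62 had a probe. Of these, 9 genes were called at 1 or more of 75 probes, 4 of them higher and 6 lower, with Ticam1 counted in both directions, and the median change over the probes was -0.02. Of the 75 probes 5.33% were called higher and 9.33% lower, no more than the 10.5% and 10.0% of the whole array. Jak1, the kinase shared by all interferon receptors, fell at both of its probes, by 0.69 at the bright one (13220 ± 992 against 8200 ± 605; SE 0.0860, adjusted p = 0.000535) and by 0.57 at the dim one (adjusted p = 0.00193). The Jak1 values of every Hira CKO animal were below those of every control at both probes. The adaptor Mavs, through which RIG-I and MDA5 signal, fell by 0.37 (adjusted p = 0.0149), Daxx, itself a chaperone of H3.3, by 0.45 (adjusted p = 0.00245) and Irf2bp1, a corepressor partner of IRF2, by 1.18 (adjusted p = 0.000228).

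The remaining calls of that list were mixed. Ticam1, the adaptor of the RNA receptor TLR3, changed by -0.73 at one probe (adjusted p = 0.00634) and by 0.33 at another, so no direction can be given. Dtx3l, a ubiquitin ligase, was higher by 0.51 (adjusted p = 0.0114) and the guanylate-binding protein Gbp2b by 0.37 (adjusted p = 0.0132). Il10rb, a receptor chain shared by interferon lambda, was higher by 0.38 (adjusted p = 0.0283), and Pias1, an inhibitor of interferon signalling, changed by -0.28 at one probe (adjusted p = 0.0481) and by 0.20 at another that did not pass (adjusted p = 0.0870). The calls of the second Ticam1 probe, Il10rb and Pias1 were lost in 5, 5 and 7 of the 8 fits without 1 animal, with adjusted p up to 0.0748, 0.0792 and 0.116. Probes for the interferons themselves did not pass: Ifnb1 changed by -0.06 and Ifng by -0.18, at dim control means of 102 and 111. Ifne changed by 0.54 (adjusted p = 0.0514).

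Of 25 further antigen presentation genes 19 had a probe. Of these, 1 was called higher and 4 lower, with a median change of -0.0035 over their probes. Of their 23 probes 4.35% were called higher and 17.4% lower, against 10.5% and 10.0% of the whole array. Calr, or calreticulin, a chaperone of class I assembly and of calcium storage, fell by 2.26 at its probe (1612 ± 198 against 324 ± 48.4; SE 0.125, adjusted p = 4.84e-06). Hspa5, the chaperone BiP of the same compartment, was higher by 0.61 (9087 ± 1000 against 13980 ± 2460; adjusted p = 0.0135). Rfxap, a subunit of the factor that binds MHC promoters with CIITA, fell by 0.37 and Creb1 by 0.28, with adjusted p of 0.0227 and 0.0265. Ctsl, a protease that trims the invariant chain, changed by -0.37 at one probe (adjusted p = 0.0493) and by 0.59 at another, which did not pass (adjusted p = 0.0968, groups apart), so no direction can be given. The calls of Rfxap, Creb1 and Ctsl were lost in 5, 6 and 6 of the 8 fits without 1 animal, with adjusted p up to 0.0676, 0.0669 and 0.121. Nlrc5, the regulator of class I genes, changed by -0.05 and -0.14 at its 2 probes and passed at neither.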

How the data were processed

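The authors deposited a linear intensity for each probe on each of the 24 arrays, already normalized as judged from the values: array medians lay between 431.5 and 433.5 and the highest value was the same on every array. Per the labels, 5 micrograms of Cy5-labelled total RNA were used, extracted with Trizol from frozen muscle. How the arrays were scanned and background-corrected is not given in the sources used here. Values below 0 were set to 0, 16 was added and log2 was taken; no member probe had a value at or below 0. Changes on this scale understate those of dim probes. No detection calls were used, and precision is limited by the number of animals.

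Each animal's 3 arrays were averaged on the log2 scale. A linear model per probe, 4 against 4 animals, was fitted in R 4.3.3 by lmFit and eBayes of limma 3.58.1, with Benjamini-Hochberg adjustment over all 26423 probes. Quoted per-animal values and mean ± SD are linear intensities. The p-values set the group difference against the spread between these animals, moderated by eBayes over all probes. They take the animals as independent, and the labels number the animals but give no litters or cages. Probes were named from the platform annotation, with 1 symbol for each of 20377 probes, and symbols were updated with the RefSeq table of GRCm38.p6, which also gave chromosomes. Different probes of a gene were kept apart, and groups were compared only within a probe. Marker sums add several probes. Where the sums of the groups stood apart, their ranges are also given without the probe whose group means differ most (chosen after seeing the data).

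The member genes and all gene lists were chosen with earlier results of these data known. Values by animal were given for member probes that passed, for those whose groups did not overlap with a change of at least 0.3 log2, and for the brightest probe of each role; Irf8, Ciita and Tap1 were added after their values were seen. In the lists outside the members, the genes that passed were named; Ifnb1, Ifng, Ifne and Nlrc5 were added after their values were seen. Motifs were searched in Python 3.11.15. Tested on simulated data of 26423 probes, the fit found 50.7% of the 67 probes shifted by 0.5 log2, 98.5% of the 67 shifted by 1 and 100% of the 66 shifted by 2, and made 11 false calls. Far fewer probes were shifted there than the 20.6% called in these data, and the noise of each probe was drawn independently. An adjusted p of 0.05 therefore asked for a smaller unadjusted p there, and these shares do not give the power of the fit here. The alternatives were other pseudocounts, centring, loess, a filter on dim probes, other treatments of the 3 arrays, replicate blocks, other variance models, array weights, each animal left out, other thresholds and 1 probe per gene.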

Additional observations from a re-analysis of the deposited data

Results flagged for a closer look

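Of 102 groups of 4 animals tested (51 member probes, both genotypes), 9 had 1 animal far from the other 3 by Dixon's ratio of gap to range at the 95% limit. Chance gives about 1 in 20 groups. Among controls, control 1 was high at Jak2 (ratio 0.843) and low at Isg15 (0.873), control 4 was low at Oas3 (0.855) and control 2 high at Rsad2 (0.876). Among Hira CKO animals, animal 1 was high at Irf7 (0.865) and low at Ciita (0.906), and animal 4 was high at Irf8 (0.894) and low at Ifih1 (0.835) and Ifit2 (0.839). No animal accounted for more than 3 of them.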

How the results depend on the processing

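Pseudocounts of 1 and 50, median centring, cyclic loess, leaving out the lowest 30% of probes, and a trended robust variance kept the counts of 1 interferon probe higher and 4 lower and of 0 antigen presentation probes higher and 2 lower. Ifngr2 probe 2 and Cd74 probe 1 were called under all 22 alternatives fitted, Irf9 and H2-Ab1 under 21, with adjusted p of 0.0521 and 0.0679 on array 2 of each animal alone; Irf7 and Ifitm1 were called under 15 and Isg15 under 13. The Isg15 call was lost with the median of 3 arrays (adjusted p = 0.0515), with array 1 or 2 alone (0.0872 and 0.0734) and with the animal number as a block (0.0570), that of Irf7 with array 2 or 3 alone (0.0623 and 0.0546), and that of Ifitm1 with the median (0.0826) and array 3 alone (0.159). The interferon probes called higher went to 0 with the median of the 3 arrays, with array 2 or array 3 of each animal alone and at a threshold of 0.01, and to 2 at a threshold of 0.10. The interferon probes called lower went to 1 with array 2 alone, 2 at a threshold of 0.01, and 8 with the 24 arrays fitted with the animal as a random block. The antigen presentation probes called lower went to 1 with array 2 alone, at a threshold of 0.01 and without H2-Aa and H2-Ab1 (chosen after seeing the data), and to 4 at a threshold of 0.10 and with the 24 arrays. Adding the array repeat number as a replicate block to the 24 arrays gave the same 8 and 4; the probe higher there was the dim Irf1 probe, not Ifitm1. Animal numbers did not pair the animals (deviation correlations from -0.06 to 0.30), and with the animal number as a replicate block 3 interferon and 3 antigen presentation probes were lower. Leaving out 1 animal gave 0 to 1 interferon probes higher, 2 to 4 lower, and 2 to 3 antigen presentation probes lower. The change of Usp18 turned sign with array 1 alone (-0.0437), and ran from -0.11 to 0.21 when 1 animal was left out; that of Irf1 probe 1 ran from -0.38 to 0.0408. The cause of these differences was not tested. Control-animal spread and 4 animals a group limit what smaller changes could be called.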
